A study of Rattus norvegicus with 24 samples.

Results

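The endoplasmic reticulum (ER) stress response was followed through 10 genes in rat liver constructs grown in vitro. The genes were Derl3, Hspa5, Herpud1, Sdf2l1, Hyou1, Pdia4, Dnajb9, Ddit3, Atf4 and Xbp1, which were all the listed genes with a probe on the array, out of 13337 genes with a probe. Each had 1 probe, and all 10 were among the 9145 genes detected on at least 3 of the 24 arrays and therefore tested. Derl3 was put on the list because its level fell after day 2. Its values in the constructs are therefore a description without a test, and counts of tested genes below cover the other 9.

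The constructs were caudate lobes of rat liver scaffolds that had been stripped of their cells with detergent. They were refilled through the portal vein with liver cells from adult Sprague Dawley rats and perfused with Williams' Medium E containing fetal bovine serum, insulin and dexamethasone. RNA was taken from 4 constructs at day 2, 4 at day 15 and 3 at day 28, from 4 samples of freshly isolated hepatocytes and from 4 cadaveric livers, and was hybridized to RatRef-12 BeadChips. The rats were anesthetized with ketamine and xylazine and heparinized, no genetic alteration is recorded for any group, and 1 medium, with dexamethasone, is described for all constructs. The isolated hepatocytes were a collagenase and Percoll preparation that was never cultured, and cadaveric liver was the whole organ with all of its cell types. The sources used here do not say which cell preparation or donor went into which construct, so the day of sampling and the cell preparation cannot be told apart.

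Values are log2 intensities after background correction and quantile normalization, and a difference of 1 is a 2-fold change. A probe was counted as detected on an array at a detection p under 0.05, and the median share of detected probes per array ran from 43.2% in hepatocytes to 49.8% in day 28 constructs. Samples of a group correlated at r = 0.986 to 0.995 over the tested genes, except on day 15, when constructs 1 and 2 (r = 0.994) and constructs 3 and 4 (r = 0.994) formed pairs that correlated at 0.971 to 0.983 with each other. On day 2 the same numbers were also closest, at 0.9948 for constructs 1 and 2 and 0.9950 for constructs 3 and 4, against 0.990 to 0.993 between them. Of 10 hepatocyte marker genes on the array, 9 were detected on every array of every group and 1 on none. The samples are bulk RNA, in which fewer cells of a type and less RNA per cell cannot be told apart.

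When unfolded proteins collect in the ER, sensors in its membrane start the unfolded protein response. The kinase PERK (gene Eif2ak3) slows translation and raises the transcription factor ATF4, which with CHOP (Ddit3) drives amino acid and stress genes. The nuclease IRE1 (Ern1) splices Xbp1 mRNA into an active transcription factor, and ATF6 is cut in the Golgi into another. Together they raise chaperones, folding enzymes and the machinery that exports misfolded proteins for destruction. Hepatocytes, which secrete most plasma proteins, are rich in ER.

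Short promoter stretches of 5 of the genes show elements by which this response is known to act. They are printed because only these 5 had a match, before the gene's start, to either element described next. The ER stress element (ERSE) is CCAAT followed, after 9 bases of any kind, by CCACG, and binds NF-Y with ATF6 or XBP1. Its shorter form, ERSE-II, is ATTGG followed, after 1 base of any kind, by CCACG. Windows of 300 bases, from 250 before to 50 after a gene's start, were taken from RefSeq (rat build GRCr8) for all 10 genes, with 11 windows because Hyou1 has 2. Both strands were searched, and the capitals mark the match, which reads as its reverse complement in Derl3 and Hyou1. The stretches read 5′ to 3′ on the gene's own strand and all lie before the start of transcription.
Derl3 (ERSE, chr20:12766561-12766659, minus strand): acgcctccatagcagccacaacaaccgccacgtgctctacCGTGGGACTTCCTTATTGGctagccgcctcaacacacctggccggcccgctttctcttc
Hspa5 (ERSE, chr3:38452933-38453015, plus strand): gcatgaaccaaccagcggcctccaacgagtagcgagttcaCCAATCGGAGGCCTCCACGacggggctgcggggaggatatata
Xbp1 (ERSE, chr14:84604518-84604616, plus strand): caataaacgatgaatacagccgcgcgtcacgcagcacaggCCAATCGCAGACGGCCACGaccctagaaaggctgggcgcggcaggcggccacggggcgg
Herpud1 (ERSE-II, chr19:10614781-10614871, minus strand): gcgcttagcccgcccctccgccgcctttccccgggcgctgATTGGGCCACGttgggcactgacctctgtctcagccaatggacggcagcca
Hyou1 (ERSE-II, 2 matches, chr8:53602654-53602844, plus strand): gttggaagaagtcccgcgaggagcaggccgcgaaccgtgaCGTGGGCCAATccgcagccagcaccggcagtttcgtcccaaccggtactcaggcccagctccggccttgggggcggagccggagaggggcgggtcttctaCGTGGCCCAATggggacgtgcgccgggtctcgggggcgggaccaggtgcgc

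Over all 33469 promoter windows of the table, ERSE was found in 22 (0.0657%) and ERSE-II in 17 (0.0508%). These shares are a description and no test, since the genes were listed for the same response as the elements. The match began 154 bases before the start in Derl3, 43 in Hspa5, 65 in Xbp1, 124 in Herpud1, and 188 and 88 in Hyou1. Of 2 further motifs searched, the unfolded protein response element TGACGTGG (0.595% of windows) occurred in Hyou1, where it overlaps the first ERSE-II match. The ATF4-bound element TGATGNAA (3.98% of windows) occurred in Herpud1 on the opposite strand. None of the 4 motifs was found in these letters in the windows of Ddit3, Atf4, Sdf2l1, Dnajb9 and Pdia4, which says nothing about the factors that bind there.

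Derl3 was far higher in day 2 constructs than in any other group. It encodes derlin-3, an ER membrane protein that helps move misfolded proteins out for degradation. The 4 day 2 constructs read 10.32, 10.36, 10.29 and 10.11, the day 15 constructs 6.40, 7.69, 6.32 and 5.53, and the day 28 constructs 5.91, 6.29 and 7.57. Hepatocytes read 5.04, 5.63, 5.08 and 4.66, and livers 6.34, 4.68, 5.86 and 5.03. Every day 2 value lay above all 15 others, with no overlap. The SD was 0.11 on day 2, 0.89 on day 15, 0.87 on day 28, 0.40 in hepatocytes and 0.76 in liver. These spreads are not like for like. Day 2 lay farthest from background. Day 2 constructs 1 and 3, day 15 construct 2 and day 28 constructs 1 and 2 average duplicate arrays. The part of either in the spreads was not tested.

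The mean of Derl3 was 10.27 on day 2 (n = 4), a log2 difference of 5.16 (35.9-fold) from hepatocytes and of 4.79 (27.7-fold) from liver. Against day 2, the difference was -3.78 on day 15 and -3.68 on day 28. The probe was detected on 6 of 6 arrays of day 2, 5 of 5 of day 15 and 5 of 5 of day 28, but on 1 of 4 hepatocyte and 3 of 4 liver arrays. The folds against hepatocytes and liver therefore rest partly on values near background, and without background correction of the intensities the differences were 4.04 from hepatocytes and 3.84 from liver. In the comparison that did not choose it, hepatocytes averaged 5.10 ± 0.40 and liver 5.47 ± 0.76 (SD, n = 4 each), a difference of -0.37 that did not pass limma's moderated test (adjusted p = 0.597).

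**Figure D1:**
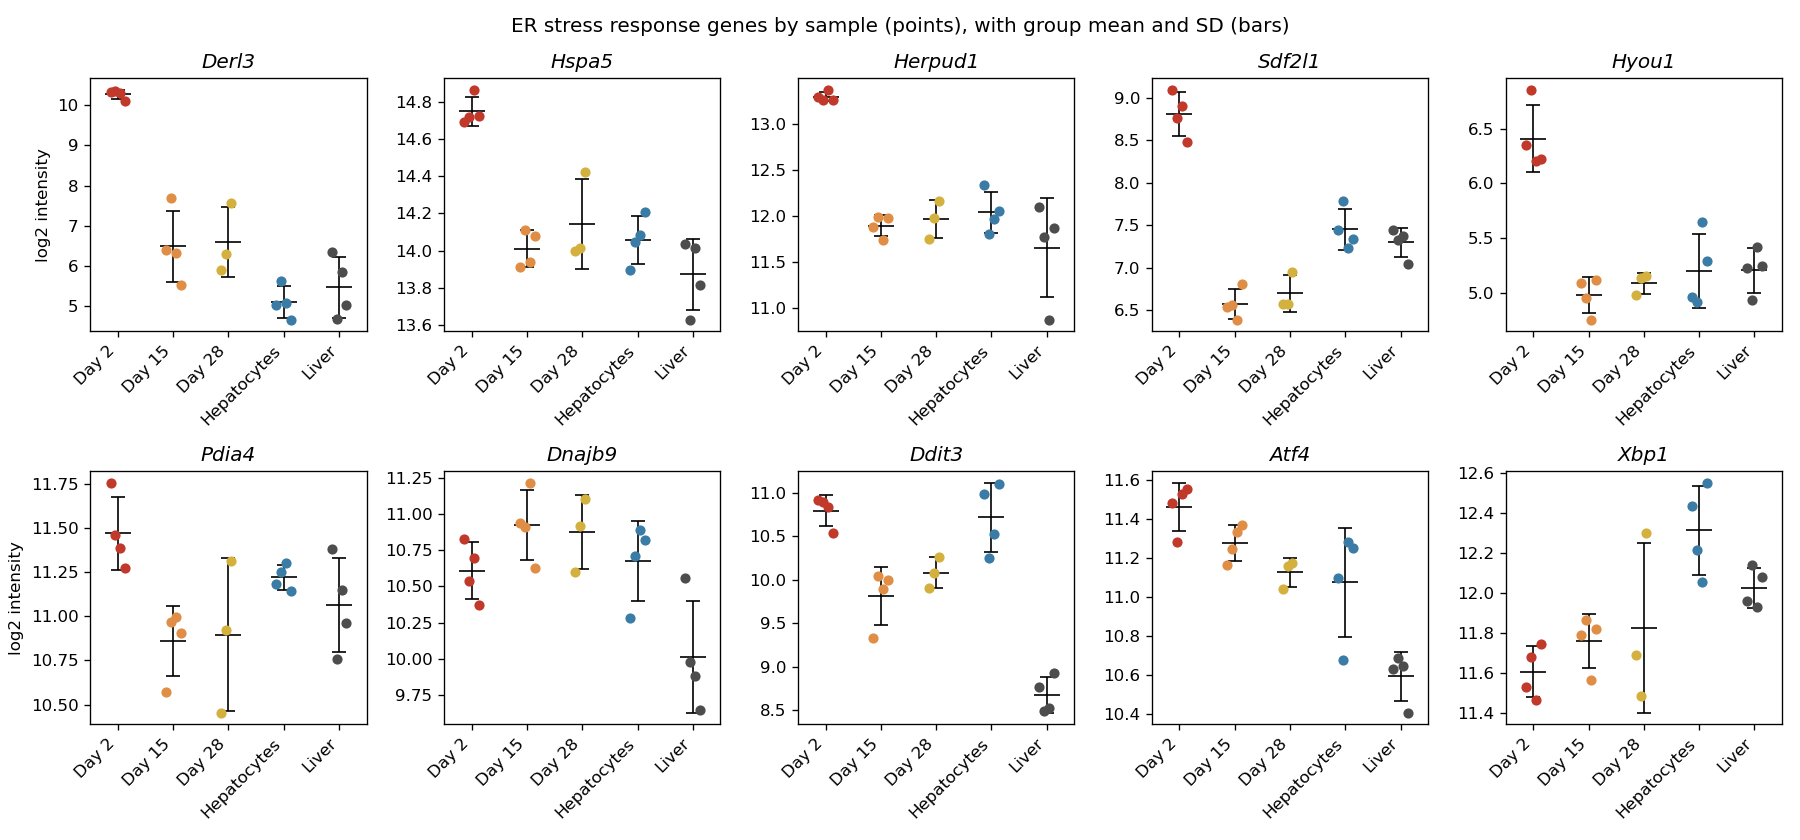
Log2 intensity of the 10 genes in each of the 19 samples (points) with the group mean and SD (bars), for constructs on days 2, 15 and 28, isolated hepatocytes and cadaveric liver; each panel has its own axis. Derl3 read 10.11 to 10.36 on day 2 and at most 7.69 in every other sample, and Hspa5, Herpud1, Sdf2l1 and Hyou1 (4 of the 9 tested genes, against 10.8% of all genes) also had all 4 day 2 samples above all others.

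Markers of plasma cells, which are rich in secretory machinery, were examined beside Derl3. Of 11 plasma and B cell markers listed, 6 were on the array, of which 1 was detected on every day 2 array and 4 on none, against 1 and 3 in hepatocytes and 2 and 3 in liver. Their summed linear intensity was 322.5 to 392.2 in day 2 constructs, 603.4 to 745.7 on day 15 and 539.3 to 809.7 on day 28, against 816.6 to 940.6 in hepatocytes and 877.7 to 1102 in liver. The sum was lowest on day 2 and rests largely on few detected probes, and its part in the level of Derl3 was not tested. Mzb1, a plasma cell ER protein, was detected on no array of any group, and Jchain had no probe.

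The chaperones and degradation factors other than Derl3 were mostly at their highest in day 2 constructs. Hspa5 encodes BiP, the main ER chaperone and the sensor-binding partner in the lumen. Its values were 14.69, 14.72, 14.86 and 14.73 on day 2, 13.91, 14.11, 13.94 and 14.08 on day 15, and 13.997, 14.01 and 14.42 on day 28. Hepatocytes read 13.90, 14.04, 14.08 and 14.21, and livers 14.03, 13.63, 14.01 and 13.82. All 4 day 2 constructs exceeded the other 15 samples, and the highest outside day 2 was construct 3 of day 28. The highest value of any gene in any sample was 14.96, so Hspa5 on day 2 lay near the upper end of the measured scale.

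Herpud1, an ER membrane protein that assembles the degradation machinery, showed the same separation. It read 13.30, 13.26, 13.37 and 13.27 in day 2 constructs, against 12.34, 11.81, 11.97 and 12.06 in hepatocytes and 12.10, 11.77, 10.88 and 11.88 in livers. On day 15 it read 11.89, 11.99, 11.74 and 11.98, and on day 28 11.76, 11.98 and 12.17. The later constructs lay within the range of hepatocytes and liver together, and liver 3 was the lowest sample of all.

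Sdf2l1, a partner of ER co-chaperones, had the widest spread of group means among the 9 tested genes, with 8.81 on day 2 and 6.57 on day 15. It read 9.10, 8.77, 8.91 and 8.48 on day 2, 6.53, 6.56, 6.38 and 6.80 on day 15, and 6.57, 6.58 and 6.95 on day 28. Hepatocytes read 7.44, 7.78, 7.23 and 7.34, and livers 7.44, 7.32, 7.38 and 7.04. The day 2 constructs lay above, and the day 15 and day 28 constructs below, every hepatocyte and liver sample.

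Hyou1, the nucleotide exchange factor that recycles BiP, was not detected on every array outside day 2. Day 2 constructs gave 6.35, 6.85, 6.21 and 6.23, against 4.96, 4.92, 5.65 and 5.29 in hepatocytes and 5.23, 4.93, 5.42 and 5.25 in livers. Day 15 constructs gave 5.09, 4.96, 4.76 and 5.12, and day 28 constructs 4.98, 5.14 and 5.15. It was detected on 6 of 6 arrays of day 2, 4 of 5 of day 15, 4 of 5 of day 28, 2 of 4 of hepatocytes and 3 of 4 of liver. Day 2 was the only group in which every array detected it, and its 4 values lay above all others.

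Pdia4, a protein disulfide isomerase, overlapped more between groups. It ranged from 11.27 to 11.76 on day 2, from 10.57 to 10.995 on day 15 and from 10.45 to 11.31 on day 28, against 11.14 to 11.30 in hepatocytes and 10.76 to 11.38 in liver. Dnajb9, an ER co-chaperone that BiP uses at IRE1, was the exception among the chaperones. It ranged from 10.37 to 10.83 on day 2, from 10.63 to 11.21 on day 15 and from 10.60 to 11.10 on day 28, against 10.28 to 10.89 in hepatocytes and 9.64 to 10.55 in liver. Its highest group mean fell on day 15 and not on day 2, while 7 of the 9 tested genes had their highest mean on day 2, as did 29.3% of all 9145 genes.

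Of the transcription factors, Ddit3 averaged 10.80 ± 0.18 on day 2, 10.72 ± 0.40 in hepatocytes and 8.68 ± 0.21 in liver (SD, n = 4 each). Ddit3, the gene of the pro-apoptotic factor CHOP, read 10.92, 10.90, 10.84 and 10.54 on day 2, 9.33, 10.05, 9.89 and 10.00 on day 15, and 9.91, 10.09 and 10.26 on day 28. Hepatocytes read 10.99, 10.25, 10.53 and 11.10, and livers 8.76, 8.50, 8.52 and 8.93. Every liver lay below every other sample, and the hepatocyte range enclosed that of day 2.

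Atf4, the effector of PERK and of the other kinases that phosphorylate eIF2 alpha, ranged from 11.28 to 11.55 on day 2, from 11.16 to 11.37 on day 15 and from 11.04 to 11.17 on day 28. Hepatocytes ranged from 10.67 to 11.28 and livers from 10.40 to 10.69. All constructs were above all livers, and neighbouring days overlapped. Xbp1 ran the other way, from 11.47 to 11.74 on day 2, from 11.57 to 11.86 on day 15 and from 11.49 to 12.30 on day 28, against 12.05 to 12.55 in hepatocytes and 11.93 to 12.14 in liver. Day 2 constructs lay below every hepatocyte and liver sample. These are levels of the whole transcript as seen by 1 probe, and the splicing of Xbp1 was not analysed here.

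Day 2 constructs were set against isolated hepatocytes, the uncultured cells of the kind perfused into the scaffolds. Of the 9 tested genes, 5 were higher, 1 was lower and 3 did not pass limma's moderated test at an adjusted p under 0.05. Of all 9145 genes 56.6% were called, 31.7% higher and 24.9% lower. Sdf2l1 was higher by 1.36 (2.6-fold, standard error 0.15, adjusted p = 2.77e-07), Herpud1 by 1.26 (standard error 0.19, adjusted p = 1.59e-05) and Hyou1 by 1.20 (standard error 0.17, adjusted p = 5.04e-06). Hspa5 was higher by 0.69 (standard error 0.11, adjusted p = 3.62e-05) and Atf4 by 0.38 (standard error 0.12, adjusted p = 0.00942). Xbp1 fell by 0.71 (standard error 0.15, adjusted p = 4.32e-04). Without background correction the difference of Hyou1 was 0.68, and it was still called. Differences of 0.25 in Pdia4, 0.08 in Ddit3 and -0.07 in Dnajb9 did not pass. The median difference over the 9 genes was 0.38, and over all genes 0.02.

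With median scaling in place of quantile normalization, a choice made after seeing the data, the median of all genes moved to -0.23 in that comparison. Of the genes called, 38.97% were then higher, against 56.1% with the deposited values. Hspa5 (0.16, adjusted p = 0.302) and Atf4 (0.14, adjusted p = 0.376) lost their calls, and stood 0.39 and 0.37 above that median. The calls of Sdf2l1, Herpud1, Hyou1 and Xbp1 kept their direction and their side of the threshold.

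**Figure D2:**
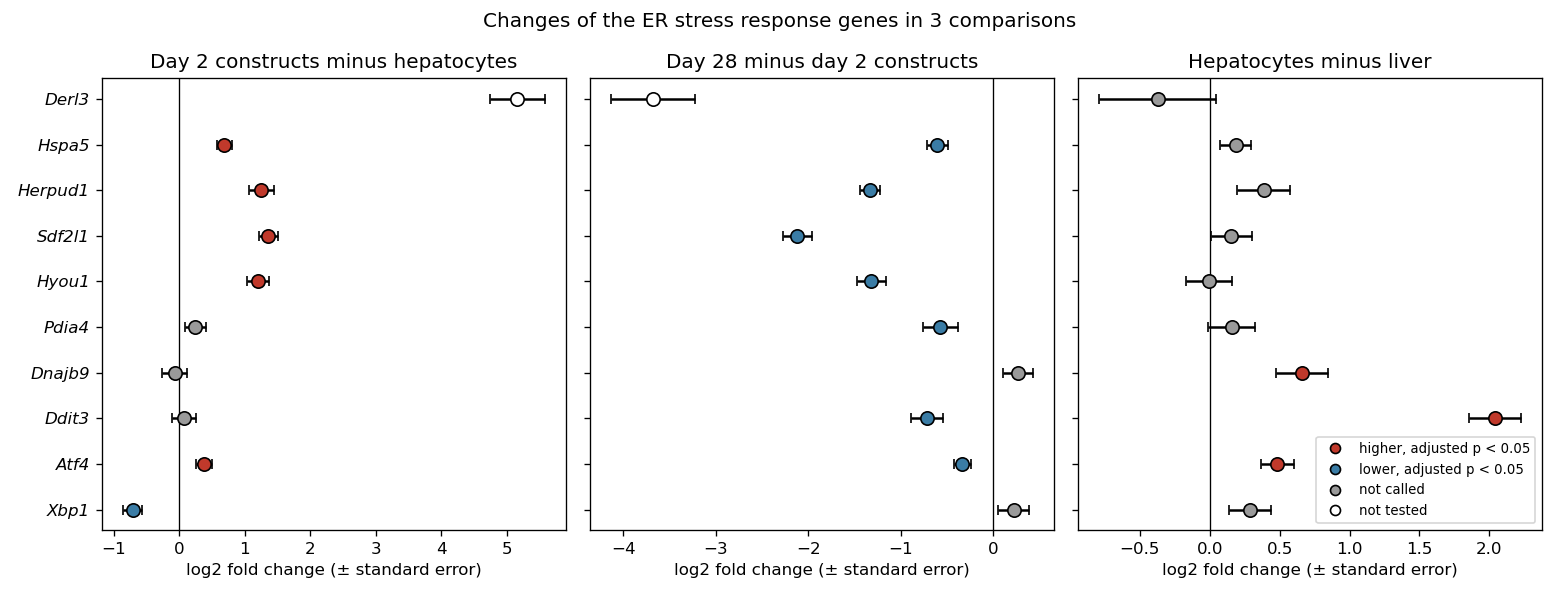
Log2 fold change with its standard error for the 10 genes in day 2 constructs minus hepatocytes, day 28 minus day 2 constructs, and hepatocytes minus liver. Filled red points were called higher, blue lower and grey not called. Open points (Derl3 in the first and second panels) were not tested, and Derl3 was not called in the third. Sdf2l1, Herpud1 and Hyou1 moved by 1.20 to 1.36 upward in the first panel and by 1.32 to 2.12 downward in the second, while Ddit3 moved by 2.04 in the third.

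The hepatocytes were in turn set against cadaveric liver, and Ddit3 led that comparison. Of the 9 genes 3 were higher and none lower, where 21.8% of all genes were called, 10.9% higher and 10.9% lower. Ddit3 was higher by 2.04 (4.1-fold, standard error 0.19, adjusted p = 1.32e-07), Dnajb9 by 0.66 (adjusted p = 0.0147) and Atf4 by 0.48 (adjusted p = 0.00580). Without liver 4 Dnajb9 lost its call (0.54, adjusted p = 0.0634). With median scaling the median of all genes was 0.21, and 73.6% of the genes called were higher, against 49.8% with the deposited values. Hspa5 (0.59, adjusted p = 0.00464), Xbp1 (0.64, adjusted p = 0.00424) and Herpud1 (0.74, adjusted p = 0.00877) were then also called higher.

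Day 2 constructs had 8 of the 9 genes higher than liver and Xbp1 lower, where 58.8% of all genes were called, 33.6% higher and 25.2% lower. Ddit3 was higher by 2.12 (4.3-fold, standard error 0.19, adjusted p = 1.45e-08), Herpud1 by 1.64 (adjusted p = 5.62e-07), Sdf2l1 by 1.52 (adjusted p = 6.05e-08) and Hyou1 by 1.20 (adjusted p = 4.74e-06). Hspa5 was higher by 0.88 (adjusted p = 2.11e-06), Atf4 by 0.87 (adjusted p = 4.03e-06) and Dnajb9 by 0.60 (adjusted p = 0.00988). The call of Pdia4 (0.41, adjusted p = 0.0427) was lost in 7 of 19 fits that each left out 1 sample (livers 2, 3 and 4, day 2 constructs 1, 2 and 3, or day 28 construct 2), with an adjusted p of up to 0.147. The call of Xbp1 (-0.42, adjusted p = 0.0196) was lost without liver 2 (adjusted p = 0.0527) or day 2 construct 3 (adjusted p = 0.0583). The comparisons of the 3 construct days and of the hepatocytes with liver share these 4 livers.

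On day 15 and on day 28, Ddit3, Atf4 and Dnajb9 were higher than in liver and Sdf2l1 was lower. Of all genes 56.1% were called on day 15 (30.5% higher, 25.6% lower) and 55.4% on day 28 (28.8% higher, 26.6% lower). Ddit3 was higher by 1.14 on day 15 (adjusted p = 3.88e-05) and by 1.41 on day 28 (adjusted p = 8.64e-06), and Dnajb9 by 0.91 (adjusted p = 3.81e-04) and 0.86 (adjusted p = 0.00128). Atf4 was higher by 0.68 (adjusted p = 6.97e-05) and 0.53 (adjusted p = 0.00156), and Sdf2l1 differed by -0.73 (adjusted p = 3.81e-04) and -0.60 (adjusted p = 0.00374). Hspa5 on day 28 (0.27, adjusted p = 0.0667) passed without liver 1, liver 3 or day 28 construct 1 (adjusted p = 0.0420, 0.0472 and 0.0453). Xbp1 on day 28 (-0.20, adjusted p = 0.301) passed without construct 3 (-0.44, adjusted p = 0.0135).

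With median scaling the medians of all genes against liver were -0.16 on day 15 and -0.23 on day 28. Of the genes called, 39.1% and 34.6% were then higher, against 54.3% and 52.0% with the deposited values. Xbp1 and Hyou1 were then also lower on both days, Xbp1 at adjusted p = 0.00671 on day 15 and 0.0107 on day 28, and Hyou1 at adjusted p = 0.00220 on day 15 and 0.00969 on day 28.

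Within the culture, Derl3 was chosen on the step after day 2, so counts for that step are given with their background and nothing is read from them. On day 15 none of the 9 genes was higher than on day 2 and 6 were lower, where 46.5% of 8753 genes were called, 20.2% higher and 26.3% lower. On day 28 none was higher and 7 were lower, where 54.9% were called, 21.6% higher and 33.3% lower. With median scaling, whose medians of all genes were -0.20 on day 15 and -0.33 on day 28, the share of higher genes among those called was 29.4% on day 15 and 25.7% on day 28. With the deposited values it was 43.4% and 39.4%. The moderated F test over the 3 days called 7 of the 9, all but Xbp1 (adjusted p = 0.481) and Dnajb9 (adjusted p = 0.179), where it called 56.9% of all genes.

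Between day 28 and day 15 none of the 9 was called by limma, where 8.8% of genes were called, 4.26% higher and 4.54% lower. The differences ran from -0.15 (Atf4) to 0.27 (Ddit3), and 0 of the 9 had an unadjusted p under 0.05.

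On day 28, against day 2, Sdf2l1 differed by -2.12 (standard error 0.16, adjusted p = 3.15e-06), Herpud1 by -1.33 (standard error 0.11, adjusted p = 4.72e-06) and Hyou1 by -1.32 (standard error 0.16, adjusted p = 4.20e-05). The difference of Sdf2l1 was 4.3-fold. Ddit3 differed by -0.71 (adjusted p = 0.00463), Hspa5 by -0.61 (adjusted p = 0.00106) and Atf4 by -0.34 (adjusted p = 0.0110). Pdia4 differed by -0.57 (adjusted p = 0.0246), and was not called without day 2 construct 1 (adjusted p = 0.0664), day 28 construct 1 (adjusted p = 0.122) or day 28 construct 2 (adjusted p = 0.0545).

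On day 15, against day 2, Sdf2l1 differed by -2.24 (adjusted p = 1.62e-06), Hyou1 by -1.43 (adjusted p = 2.24e-05) and Herpud1 by -1.40 (adjusted p = 2.81e-06). Without background correction Hyou1 differed by -0.79 on day 15 and by -0.74 on day 28, and kept its calls. Ddit3 differed by -0.98 (adjusted p = 4.88e-04), Hspa5 by -0.74 (adjusted p = 2.21e-04) and Pdia4 by -0.61 (adjusted p = 0.0149). Atf4 (-0.18, adjusted p = 0.110) was called lower without day 2 construct 2 (adjusted p = 0.0411) and with median scaling (adjusted p = 0.00960). Dnajb9 (0.32, adjusted p = 0.108) was called higher without day 15 construct 4 (adjusted p = 0.0422). Without day 15 constructs 1 and 2, a choice also made after seeing the data, Pdia4 was not called (adjusted p = 0.0829).

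Stellate cell and fibroblast markers moved over the same days. Of 10 listed, 7 were on the array, and their summed linear intensity was 193.6 to 411.7 on day 2, 4435 to 35390 on day 15 and 19010 to 37050 on day 28, against 368.6 to 513.8 in hepatocytes and 3091 to 6404 in liver. Hepatocyte markers, 10 of 12 on the array, summed to 128300 to 140900 on day 2, 150400 to 163300 on day 15 and 141500 to 156300 on day 28, against 172100 to 186300 in hepatocytes and 168500 to 175900 in liver. Day 2 was thus lowest in both sums among the constructs, and the part of either in the differences was not tested. Such sums weigh the brightest probes most. Gene by gene, the 9 tested hepatocyte markers had a median difference from liver of -0.63 on day 2, -0.06 on day 15 and -0.20 on day 28. From hepatocytes, their median difference on day 2 was -0.59, against 0.02 over all genes. Between day 15 and day 2 it was 0.07. Bile duct cell markers (4 of 6) summed to 798.4 to 973.1 on day 2, 3603 to 5463 on day 15 and 2967 to 3231 on day 28, against 537.2 to 666.5 in hepatocytes and 641.8 to 1198 in liver. Endothelial markers (5 of 8) summed to 137.2 to 168.4 on day 2 and 134.3 to 145.2 on day 15. On day 28 they summed to 142.6 to 155.8, against 562.1 to 858.6 in hepatocytes and 2259 to 2476 in liver. Kupffer cell markers (4 of 8) summed to 93.27 to 188.4 on day 2 and 89.18 to 183.8 on day 15. On day 28 they summed to 160.5 to 467.4, against 212.9 to 386.3 in hepatocytes and 1219 to 2229 in liver. These too moved with the comparisons with liver and were not tested as a part of them.

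Within day 28 the 10 genes ranked the samples alike. Construct 3 was the highest of the 3 for all 10 genes, and construct 1 the lowest for 9 of 10. Over all 9145 genes construct 3 was highest for 35% and construct 1 lowest for 36.5%. In the other groups no sample was highest for more than 6 of the 10 genes. That sample was liver 1, which was the highest liver for 25.5% of all genes. The widest gaps were in Derl3, with 7.57 in construct 3 and at most 6.29 in the other 2, and in Xbp1, with 12.30 and at most 11.69. The narrowest were in Atf4 (11.173 in construct 3, 11.157 in construct 2) and Hyou1 (5.154 and 5.137). Duplicate arrays differed by up to 0.604 in these genes for construct 1 and 0.196 for construct 2, and construct 3 had no duplicate. Part of this ranking is therefore within the difference between arrays.

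Beyond the 10 genes, the sensors of the response and the proteases that release ATF6 moved in both directions. Of 9 listed, 8 were on the array and 7 were tested. Day 2 constructs had 3 above and 1 below hepatocytes, a total share near the 56.6% of all genes. Day 28 constructs had 3 above and 2 below day 2 (54.9% of all genes were called), a count of 5 that was 2 to 3 when day 2 construct 1, 3 or 4 or any 1 of the day 28 constructs was left out. Eif2ak3, the gene of PERK, read 7.90 ± 0.10 on day 2, 8.88 ± 0.29 on day 15 and 8.28 ± 0.08 on day 28 (SD, n = 4, 4 and 3), against 8.21 ± 0.13 in hepatocytes and 8.08 ± 0.33 in liver (SD, n = 4 each). On day 15 it was higher than on day 2 by 0.98 (adjusted p = 1.47e-04), where 20.2% of all genes were called higher. The probe of Atf6 was detected on no array of any group, and Ern1 had no probe.

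Mbtps2, the site-2 protease, was higher by 0.86 on day 2 than in hepatocytes (adjusted p = 1.12e-05) and differed by -1.10 on day 28 from day 2 (adjusted p = 5.08e-05). Atf6b, the paralog of Atf6, was higher by 0.55 on day 2 (adjusted p = 1.74e-04). Creb3l1, a related membrane-bound factor, differed by -0.64 on day 2 from hepatocytes (adjusted p = 0.0177) and by 0.72 on day 28 from day 2 (adjusted p = 0.0162). Its calls were lost without hepatocyte sample 4 (adjusted p = 0.0680) and without day 28 construct 1 (adjusted p = 0.0803), in that order. Mbtps1, the site-1 protease, was higher on day 28 than on day 2 by 0.44 (adjusted p = 0.00865). Creb3l2 differed by -0.44 (adjusted p = 0.0497), and was not called when day 2 construct 1, 3 or 4, day 15 construct 1 or 3, or any 1 of the day 28 constructs was left out (adjusted p of up to 0.166). It was also not called with the replicate block, with normalization computed again, without background correction, without the detection filter or with first arrays only (adjusted p = 0.0503 to 0.0804).

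Other ER chaperones and folding enzymes had 16 of 24 tested genes above hepatocytes in day 2 constructs and 4 below (31 listed, median 0.33, against 0.02 over all genes, of which 31.7% were above and 24.9% below). With median scaling 10 were higher and 6 lower. Hsp90b1, the ER form of HSP90, read 13.82 ± 0.06 in day 2 constructs and 12.67 ± 0.22 in hepatocytes (SD, n = 4 each), a difference of 1.15 (adjusted p = 4.51e-07). Pdia6 was higher by 0.62 (adjusted p = 5.27e-06), a call lost with median scaling (0.24, adjusted p = 0.0922). Pdia5, another disulfide isomerase, went the other way and read 6.20 ± 0.10 on day 2, 5.71 ± 0.18 on day 15 and 5.53 ± 0.34 on day 28, against 9.66 ± 0.11 in hepatocytes (SD, n = 4, 4, 3 and 4). On day 2 it fell by 3.46 (adjusted p = 3.15e-13), and without background correction it fell by 2.86. Ganab, the catalytic subunit of glucosidase II, fell by 0.78 (adjusted p = 1.47e-05).

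On day 28, 2 of 23 of these genes were above their day 2 level and 13 below it (median -0.27, against -0.14 over all genes, of which 21.6% were above and 33.3% below), and with median scaling 2 and 18. Canx, the lectin chaperone calnexin, fell by 0.90 (adjusted p = 2.06e-05) and Manf, a secreted ER stress protein, fell by 0.80 (adjusted p = 4.25e-05). Dnajc10, a reductase co-chaperone, was higher by 0.71 (adjusted p = 2.83e-04) and Ero1a, the oxidase that recharges disulfide isomerases, by 2.59 (standard error 0.41, adjusted p = 2.99e-04), or by 1.9598 without background correction. Ero1a read 8.51 ± 0.80 on day 28 and 5.92 ± 0.24 on day 2 (SD, n = 3 and 4).

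**Figure D3:**
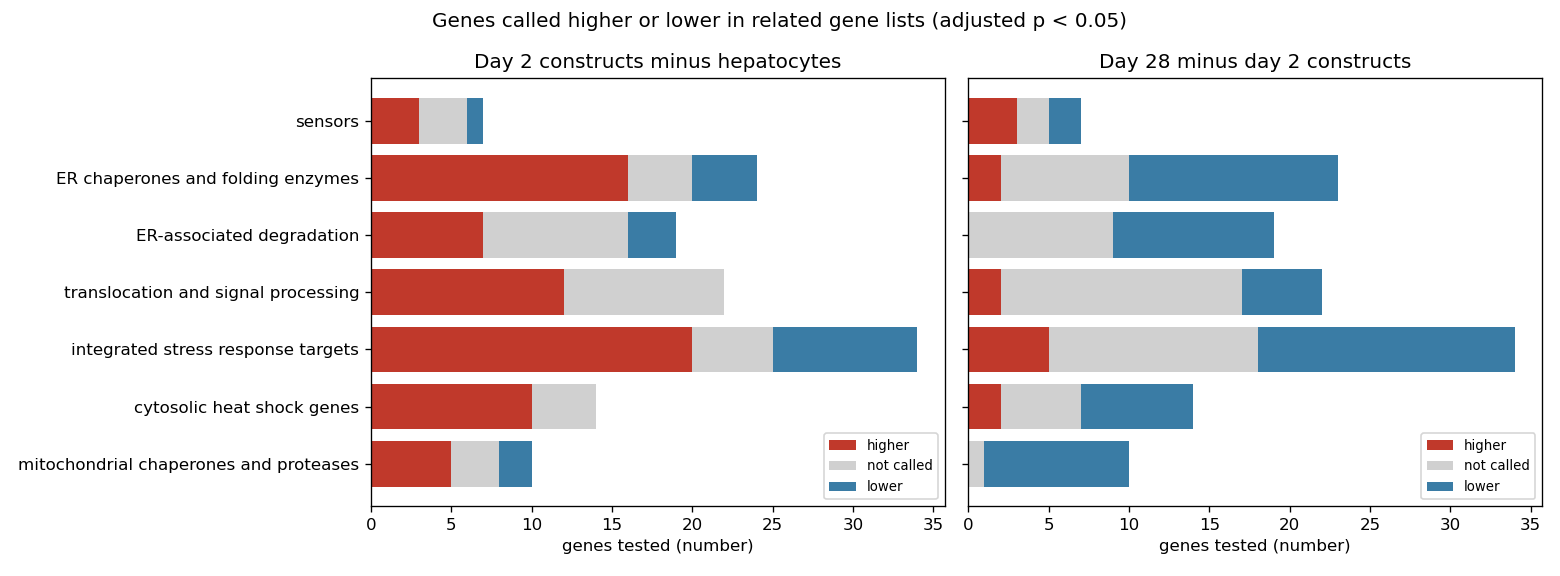
Number of tested genes called higher (red), not called (grey) or lower (blue) at an adjusted p under 0.05 in 7 related gene lists, for day 2 constructs minus hepatocytes (left) and day 28 minus day 2 constructs (right). Among integrated stress response genes 20 of 34 were higher and 9 lower in the left panel, and 5 higher and 16 lower in the right one.

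ER-associated degradation genes other than the 10 had 7 of 19 tested above hepatocytes on day 2 and 3 below, where 31.7% and 24.9% of all genes were, a total near the 56.6% of all genes. On day 28 none was above its day 2 level and 10 were below, where 21.6% and 33.3% of all genes were. Ube2g2, a ubiquitin-conjugating enzyme, was higher on day 2 than in hepatocytes by 1.24 (adjusted p = 1.88e-08) and Selenos, a selenoprotein of the export complex, by 1.24 (adjusted p = 2.88e-08). Ufd1, a cofactor of the extraction ATPase, fell by 0.58 (adjusted p = 1.04e-05) and Rnf139, a membrane ubiquitin ligase, fell by 0.56 (adjusted p = 7.13e-04). On day 28 Sel1l, the scaffold of the HRD1 ligase, differed by -1.53 from day 2 (adjusted p = 2.22e-05) and Man1b1, the mannosidase that marks glycoproteins for removal, by -1.01 (adjusted p = 1.57e-05). Selenos read 11.89 ± 0.08, 11.71 ± 0.21 and 11.85 ± 0.17 on days 2, 15 and 28 (SD, n = 4, 4 and 3), against 10.66 ± 0.16 in hepatocytes and 10.70 ± 0.10 in liver (SD, n = 4 each), so its constructs of every day lay above both.

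Genes for translocation into the ER and for signal processing had 12 of 22 tested above hepatocytes on day 2 and none below (31.7% and 24.9% of all genes), but 7 above and 5 below with median scaling. The 12 called are near the 56.6% called over all genes. Ssr4 and Ssr2, subunits of the translocon-associated complex, were higher by 1.06 (adjusted p = 2.14e-08) and 0.67 (adjusted p = 4.84e-07). On day 28, 2 were above and 5 below day 2 (21.6% and 33.3% of all genes), against 1 and 16 with median scaling, and 2 and 2 without day 28 construct 1. Srp14, of the signal recognition particle, was higher by 0.52 (adjusted p = 0.00358), a call lost with median scaling (0.18, adjusted p = 0.206). Stt3a, an oligosaccharyltransferase subunit, was higher by 0.55 (adjusted p = 0.0135), but not without day 28 construct 3 (adjusted p = 0.0657). Sec61a1, the translocation channel, fell by 0.87 (adjusted p = 6.86e-04) and Rpn1, another oligosaccharyltransferase subunit, fell by 0.34 (adjusted p = 0.00634).

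Targets and regulators of the integrated stress response, the pathway through ATF4, had 20 of 34 tested above hepatocytes on day 2 and 9 below (median 0.60), where 31.7% and 24.9% of all genes were, and 18 and 9 with median scaling. The lower count is near that background. Hepatocytes had 11 of them above liver and 1 below, where 10.9% of all genes were above and 10.9% below. Asns, asparagine synthetase, was detected on 6 of 6 day 2 arrays and 0 of 4 hepatocyte arrays. The difference of 3.55 between its means (adjusted p = 5.51e-12, limma's moderated test) rests on hepatocyte values that were not detected. Taking each hepatocyte array's weakest detected probe as a ceiling for it, Asns on day 2 was at least 8.38-fold higher, a bound that was not tested. That bound holds on the background-corrected scale only, since the log2 difference was 2.38 without background correction. Gars1, glycyl-tRNA synthetase, was higher by 1.95 (adjusted p = 2.62e-11). Gdf15, a stress cytokine, read 8.16 ± 0.26 on day 2, against 13.29 ± 0.44 in hepatocytes and 9.89 ± 0.83 in liver (SD, n = 4 each), and fell by 5.13 relative to hepatocytes (adjusted p = 4.58e-10). Eif2ak1, which encodes a heme-regulated kinase upstream of ATF4, fell by 1.02 (adjusted p = 1.74e-08).

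On day 28, 5 of these 34 genes were above their day 2 level and 16 below it (21.6% and 33.3% of all genes), and with median scaling 3 and 22. Vldlr, a lipoprotein receptor, was higher by 3.68 (standard error 0.54, adjusted p = 1.89e-04) and Ddit4, an inhibitor of mTORC1, by 1.20 (adjusted p = 0.00350). Wars1, tryptophanyl-tRNA synthetase, fell by 1.32 (adjusted p = 3.36e-05) and Slc3a2, an amino acid transporter chain, fell by 1.28 (adjusted p = 1.94e-05). Asns read 7.76 ± 0.17 on day 15 and 7.89 ± 0.23 on day 28 (SD, n = 4 and 3), above every hepatocyte and liver sample.

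**Figure D4:**
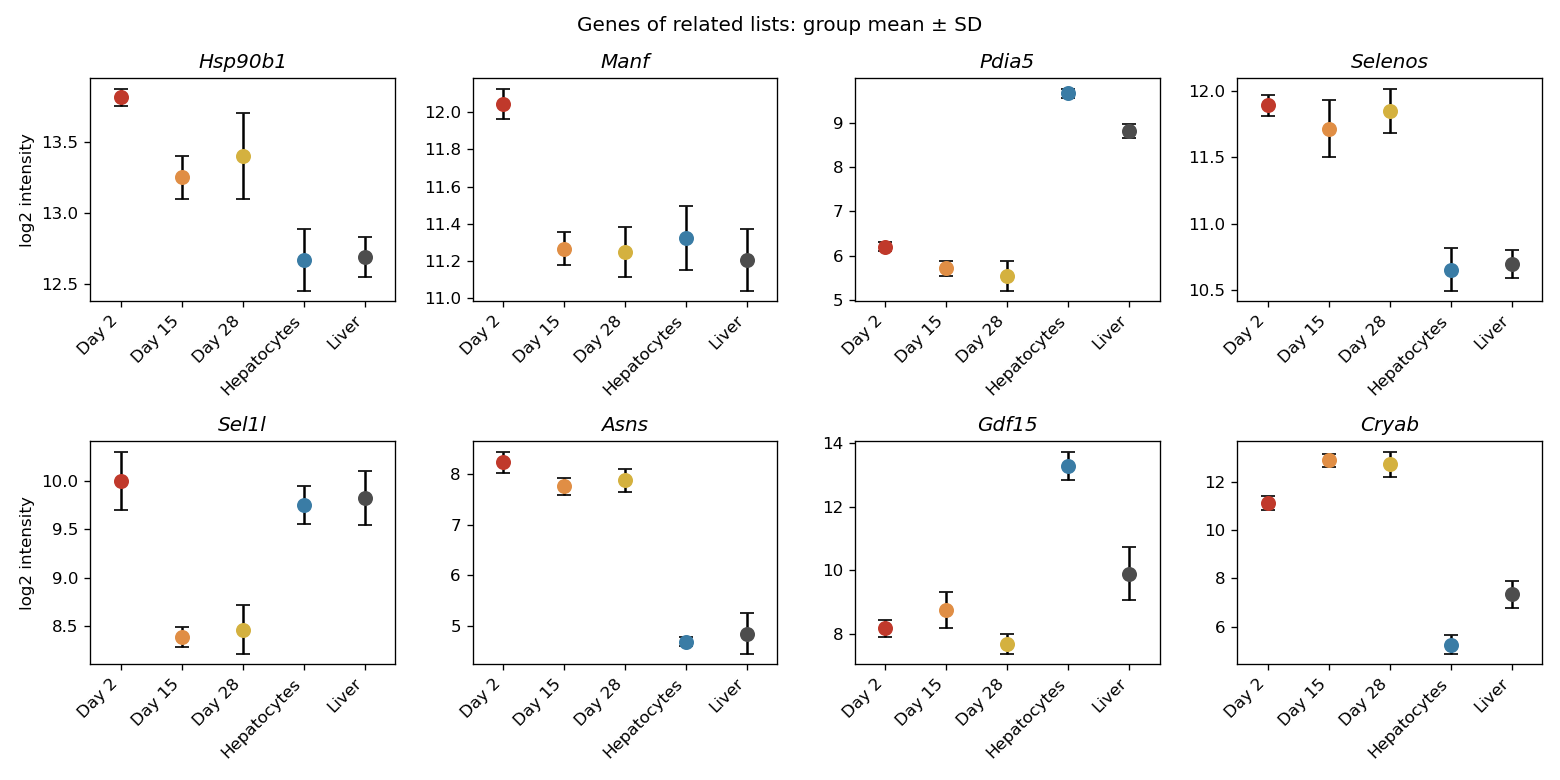
Group mean log2 intensity ± SD of 8 genes of the related lists in constructs on days 2, 15 and 28, hepatocytes and liver (n = 4, 4, 3, 4 and 4); each panel has its own axis. Manf peaked on day 2 at 12.05, Selenos and Asns stayed high through day 28, Pdia5 was low in the constructs of every day, and Gdf15 was highest in hepatocytes at 13.29.

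Chaperones outside the ER were examined for comparison. Of 14 cytosolic heat shock genes tested, day 2 constructs had 10 above hepatocytes and none below (8 and 3 with median scaling), where 31.7% and 24.9% of all genes were, and day 28 constructs had 2 above day 2 and 7 below, where 21.6% and 33.3% were. Cryab, a small heat shock protein, was higher by 5.88 (standard error 0.27, adjusted p = 3.76e-12) on day 2, with 2 of 4 hepatocyte arrays detected (4.81 without background correction), and by a further 1.63 on day 28 than on day 2 (adjusted p = 1.71e-04). Hspb1 was higher by 2.66 on day 2 (adjusted p = 7.88e-07). On day 28 Bag3, a co-chaperone of selective autophagy, was higher than on day 2 by 0.54 (adjusted p = 0.0139), a call lost with median scaling (0.22, adjusted p = 0.199) and without day 28 construct 1 (adjusted p = 0.0626). Hspa4l fell by 1.02 (adjusted p = 1.72e-04) and St13 fell by 0.44 (adjusted p = 0.00102).

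Of 10 mitochondrial chaperones and proteases tested, 5 were above hepatocytes on day 2 and 2 below (1 and 3 with median scaling), where 31.7% and 24.9% of all genes were. On day 28 none was above day 2 and 9 were below, where 21.6% and 33.3% were. Yme1l1, an inner membrane protease, was higher by 0.87 on day 2 (adjusted p = 2.37e-07) and Hspd1, HSP60, by 0.50 (adjusted p = 8.71e-05), a call lost with median scaling (0.12, adjusted p = 0.386). Clpx, the unfoldase of the ClpXP protease, fell by 1.61 (adjusted p = 2.48e-07) and Trap1, a mitochondrial HSP90, fell by 0.56 (adjusted p = 7.58e-05). On day 28 Dnaja3, a co-chaperone, differed by -1.26 from day 2 (adjusted p = 1.54e-05) and Grpel1, the exchange factor of mitochondrial HSP70, by -1.05 (adjusted p = 6.15e-06).

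The genes most like Derl3 were found by Pearson's r of log2 values over the 19 samples. These r values rest partly on the construct values for which Derl3 was chosen, and are a description without a test. They describe samples that fall into 5 shared groups, with day 2 far from the rest for Derl3. The 5 highest were Nus1, a subunit of the dolichol-making enzyme (r = 0.961), the ribosomal protein genes Rpl8 (0.952), Mrps17 (0.949) and Rpl7a (0.948), and Bzw1 (0.943). For Hspa5 they were Manf (0.947), Ramac (0.933), Piga (0.933), Yrdc (0.919) and Cpt1b (0.916). Derl3 and Hspa5 correlated at 0.906, and Hspa5 ranked 58 of 9144 genes by likeness to Derl3. Of the other listed genes, Herpud1 (0.831) ranked 342, Hyou1 (0.807) 450 and Sdf2l1 (0.715) 965. Atf4 (0.598), Pdia4 (0.558), Ddit3 (0.439) and Dnajb9 (0.223) ranked lower still, and Xbp1 (-0.602) ran opposite.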

How the data were processed

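RNA of 19 samples was measured on 24 RatRef-12 arrays, 5 constructs having a technical duplicate. The authors corrected the background, quantile normalized and took log2 of the probe values with limma (version not given), and these log2 values were analysed. The deposited intensity table, which per the file headers holds raw probe intensities with a detection p-value for each, served for detection and for alternatives. Normalization computed again from it came within 0.0262 of the deposited log2 values, and 14 of its columns carried another replicate's name of the same group. Replicate numbers and technical duplicates in the text are those of the deposited log2 values, and the sources do not say which naming is right. A further 24 deposited value columns were not used because their names match no sample.

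Technical duplicates were averaged. Probes with a detection p under 0.05 on at least 3 arrays were kept, and the brightest kept probe stood for a gene. Of 22523 probes, 13793 had 1 gene symbol and 8730 none. Groups were compared with limma 3.58.1 in R 4.3.3 (linear model, empirical Bayes), with Benjamini-Hochberg adjustment over all genes at a threshold of 0.05. Comparisons with hepatocytes or liver used 1 model over 5 groups (9145 genes), and those between days a model of the 11 constructs (8753 genes). On simulated data the test recovered 95% of 2-fold and 99% of 4-fold changes for day 2 constructs against hepatocytes (9145 genes, 8 false calls). For day 15 against day 2 it recovered 88% and 98% (8753 genes, 12 false calls). The simulation changed only a small part of the genes and gave each sample independent noise, so recovery in these data may differ. The number of arrays limits the precision. Samples of a group are labelled as replicates apart from the technical duplicates, but the sources do not say whether constructs or hepatocyte samples came from separate cell preparations. Each p therefore reflects the spread among these samples alone, which may be technical.

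The 10 genes, the gene lists and the rules were chosen with earlier results of these data known. From each list the text names the 2 genes with the lowest adjusted p in each direction, in day 2 constructs against hepatocytes and in day 28 against day 2 constructs, and for Derl3 and Hspa5 the 5 genes most like them. Eif2ak3, Atf6, Ern1, Jchain and Mzb1 were always named. Their levels in further groups are given as a description. Alternatives were the normalization, the background correction, the detection filter, the probe choice, the arrays and samples in the fit, the replicate block, the one-way test of the methods, and leaving out each sample.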

Additional observations from a re-analysis of the deposited data

How the results depend on the processing

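The number of the 9 genes called stayed within 1.5 times of the value given in all comparisons and alternatives but 1: with median scaling, chosen after seeing the data, hepatocytes had 6 genes called against liver in place of 3. Leaving out 1 sample at a time gave 2 to 3 calls for hepatocytes against liver, 6 for day 2 constructs against hepatocytes, 7 to 9 for day 2, 4 for day 15 and 4 to 5 for day 28 constructs against liver, 6 to 7 for day 15 and 6 to 7 for day 28 against day 2, 0 for day 28 against day 15, and 5 to 7 in the F test. The one-way test of the methods called 7 genes unadjusted and 6 after Benjamini-Hochberg adjustment. Calls that depended on 1 sample or on scaling stand beside their values above; Xbp1 in day 15 constructs against liver passed when only those groups were fitted (-0.27, adjusted p = 0.0495), and Hspa5 on day 28 without background correction (0.28, adjusted p = 0.0496).

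Signs turned only in differences that were not called or, for Derl3, not tested. With median scaling this was so for Hyou1 (0.16) in hepatocytes against liver, Ddit3 (-0.058) and Pdia4 (-0.0034) in day 2 constructs against hepatocytes, Hspa5 in day 15 (-0.23) and day 28 constructs (-0.16) against liver, Xbp1 on day 15 (-0.074) and day 28 (-0.073) and Dnajb9 on day 28 (-0.039) against day 2, and Herpud1 (-0.0037) and Pdia4 (-0.052) on day 28 against day 15. With the first array of each sample it was so for Dnajb9 in day 2 constructs against hepatocytes (0.054) and Xbp1 on day 28 against day 15 (-0.027). Without day 15 constructs 3 and 4, chosen after seeing the data, Derl3 (-0.46) and Xbp1 (-0.0029) turned on day 28 against day 15, and without constructs 1 and 2 Pdia4 did (-0.054). The cause was not tested.

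Leaving out 1 sample, the ranges that crossed 0 were -0.15 to 0.093 for Hyou1 in hepatocytes against liver, -0.077 to 0.21 for Ddit3 and -0.20 to 0.012 for Dnajb9 in day 2 constructs against hepatocytes, -0.020 to 0.39 for Herpud1 in day 15 and -0.38 to 0.054 for Pdia4 in day 28 constructs against liver, and -0.018 to 0.39 for Xbp1 on day 28 against day 2. On day 28 against day 15 they were -0.39 to 0.51 for Derl3, -0.0053 to 0.21 for Hspa5, -0.17 to 0.23 for Xbp1, -0.031 to 0.18 for Herpud1, -0.17 to 0.086 for Dnajb9 and -0.17 to 0.26 for Pdia4.

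Replicate numbers were not taken to pair the samples, since in no pair of groups did every same-numbered pair of deviations correlate above 0.1. Over all groups 5 of 36 did (-0.28 to 0.27), all between construct days, namely 3 of 4 between days 2 and 15 and 2 of 3 between days 15 and 28. With the replicate block 3, 6, 8, 4 and 4 genes were called for hepatocytes against liver, day 2 against hepatocytes, and days 2, 15 and 28 against liver, and 6, 0 and 7 for day 15 against 2, 28 against 15 and 28 against 2. Pdia4 on day 2 against liver lost its call with the block (adjusted p = 0.0524), as it did without the detection filter (0.0584), and Creb3l2 on day 28 against day 2 lost its call with the block (0.0782). No other named gene's call between 2 groups changed with the block, the F test called 6, and Derl3 on day 28 against day 15 turned to -0.081. The BeadChip as a block was not run because no source names it. Hyou1, and Derl3 outside the constructs, read near background, which limits their differences there.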
